A study of Mus musculus with 12 samples.

Results

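Skin of wild-type (WT) mice treated with zinc oxide nanoparticles (ZnO NPs) was compared with skin of WT mice given vehicle alone, in 6 of the 12 bulk RNA-seq libraries of the series. The members are the 3 columns labelled WT and the 3 columns labelled WT_ZnO NPs of the deposited table of gene counts, described across all expressed genes. Of 52636 genes in that table, 18822 passed the filter on low counts and were tested. The series crossed genotype (WT or *Cdc42* knockout, KO) with treatment (vehicle or ZnO NPs), 3 mice to a group, to ask how the nanoparticles act on skin whose epidermal barrier is intact or impaired. All mice are labelled C57BL/6 and aged 3 months, and the methods call the KO mice female. The WT groups received on shaved dorsal skin either normal saline with hydroxypropyl methylcellulose or the same fluid with ZnO NPs, and full-thickness skin was taken on day 14. By the study's genotyping scheme, WT mice carried 1 or 2 floxed *Cdc42* alleles and no Cre, whereas in KO mice Cre was driven by the keratin 5 promoter, which is active in basal keratinocytes.

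Total counts ranged from 21076320 to 28867802 over the 6 libraries, and the first principal component (78.7% of the variance) separated the WT from the WT_ZnO NPs libraries. Y-linked genes summed to 0 CPM (counts scaled to the size of the library) in each WT library and to 215 to 245 CPM in each WT_ZnO NPs library. *Xist*, the RNA of the inactive X chromosome, had 543, 642 and 615 CPM in the WT libraries and 0.36, 0.366 and 0.475 CPM in the WT_ZnO NPs libraries. The WT libraries therefore lack Y-linked transcripts and the WT_ZnO NPs libraries hold them, so sex and treatment cannot be told apart among these 6 libraries. In the other 6, replicate 1 of each KO group held Y-linked transcripts and replicates 2 and 3 did not. A fit with Y-linked transcripts as a covariate took its estimate of that effect from these libraries. Anything else that sets replicate 1 of both KO groups apart enters that estimate too. *Cdc42*, a GTPase of cell polarity, had 606, 628 and 616 CPM in WT, 311, 350.1 and 317 CPM in WT_ZnO NPs, 415, 464 and 439.8 CPM in KO and 365, 453 and 314 CPM in KO_ZnO NPs libraries. It was thus lower in the libraries labelled WT_ZnO NPs than in WT (log2 fold change -0.92, adjusted p = 0.000799), and below all 3 vehicle KO libraries, although WT mice carry no Cre. Groups are named below by their labels. Mitochondrially encoded genes took 2.42% to 3.20% of the counts in WT and 3.66% to 5.29% in WT_ZnO NPs libraries. The part of these differences in the results below was not tested, beyond the values with the covariate given beside them.

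Skin is renewed by basal keratinocytes, which leave the basement membrane, switch from keratins 5 and 14 to keratins 1 and 10, and build the cornified envelope and lipid layers of the barrier. Hair follicles pass through growth, regression and rest: in growth, matrix cells at the follicle base divide and form the inner root sheath and the keratinized shaft, and follicle melanocytes make pigment for it. Zinc that enters a cell is bound by metallothioneins and moved by the exporters of the Slc30 family and the importers of the Slc39 family. Macrophages, dendritic cells, mast cells and lymphocytes lie in the dermis and epidermis, and type I interferon switches on a set of antiviral genes in many cell types.

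Between the groups, 8085 genes (43.0% of those tested) passed a Benjamini-Hochberg adjusted p of 0.05 in the quasi-likelihood test of edgeR, fitted on all 12 libraries. Of these, 3922 genes (20.8%) were higher and 4163 (22.1%) were lower in the WT_ZnO NPs libraries, and these shares are the background for each list below. The median log2 fold change over all genes tested was 0.06. Among called genes the median size was 1.08 for those higher and 1.36 for those lower, and 351 and 659 genes changed by over 8-fold. In 11172 genes (59.4%) the lowest library of one group lay above the highest library of the other. With Y-linked transcripts as a covariate, 1588 genes (8.44%) were higher and 2308 (12.3%) lower, and against a fold change of 2 the test called 649 and 1310 genes. Of the 158 called genes given by name here, 86 were also called with the covariate. Since the skin was measured whole, fewer cells of a type and less RNA per cell cannot be told apart for any gene below.

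**Figure D1:**
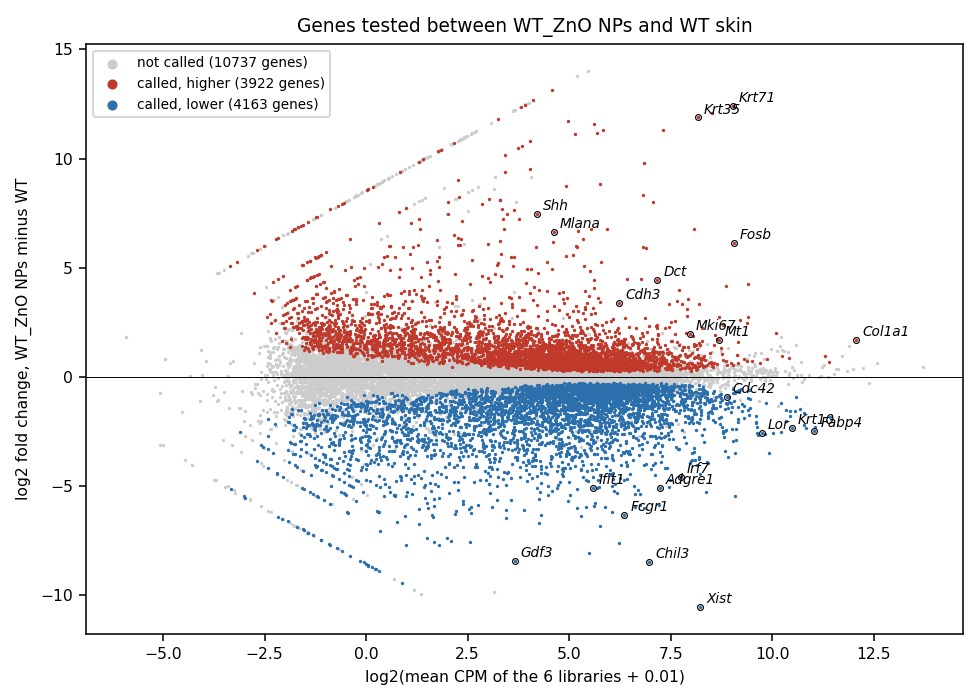
Change of each tested gene against its mean level. The x axis is the log2 of the mean CPM over the 6 libraries and the y axis the log2 fold change, WT_ZnO NPs minus WT; coloured points are the 3922 genes called higher and the 4163 called lower, and grey points passed no test. The Y-linked *Ddx3y* and *Eif2s3y*, not called in this fit, and hair keratin genes stand at the top, and *Xist*, *Gdf3* and *Chil3* near the bottom.

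**Figure D2:**
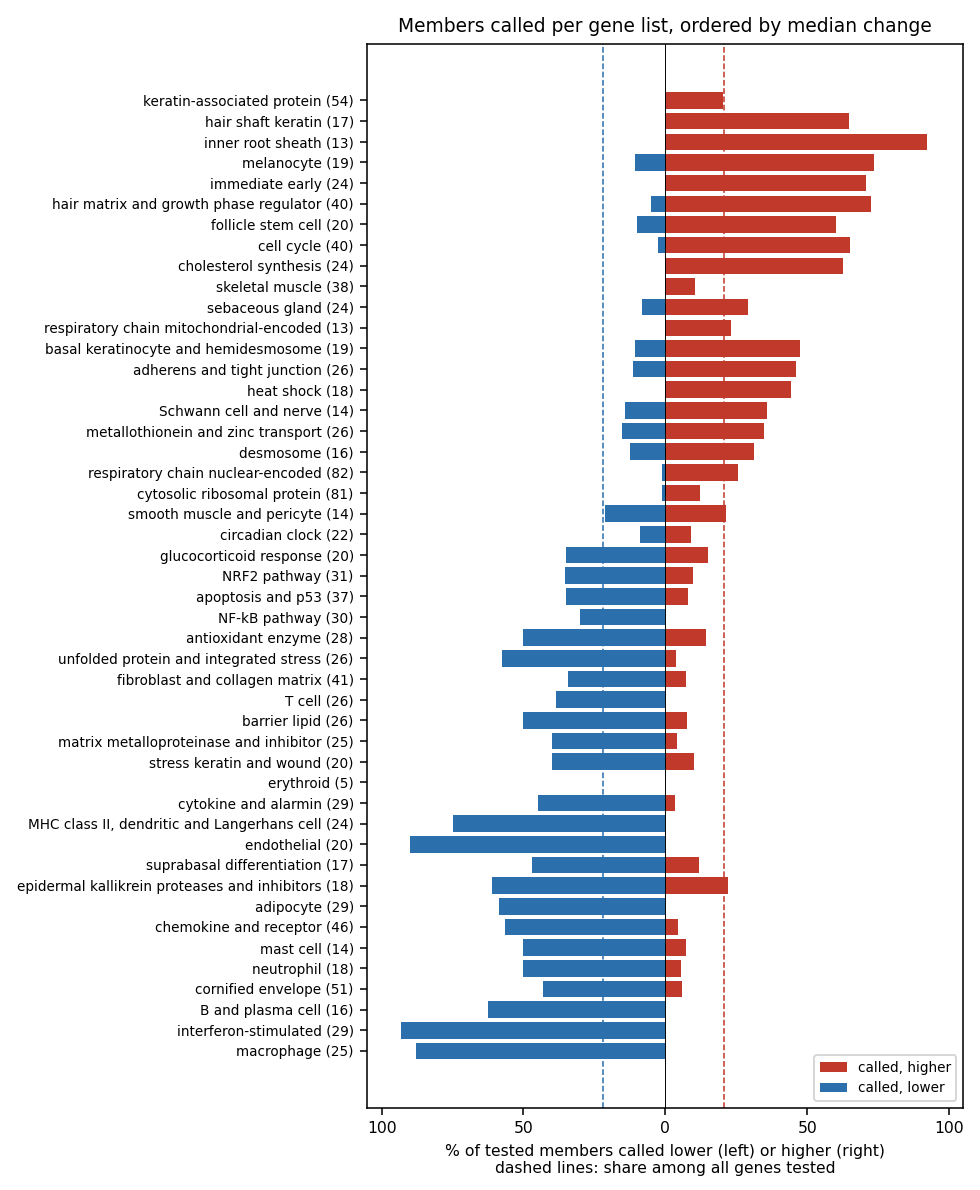
Share of each gene list called higher (to the right) and lower (to the left), in percent of its tested members. The dashed lines mark the shares over all genes, 20.8% higher and 22.1% lower; hair follicle, melanocyte, cell cycle and immediate early lists extend to the right, and macrophage, interferon-stimulated and endothelial lists to the left.

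Genes of the growing hair follicle were higher in the libraries labelled WT_ZnO NPs. Of 13 inner root sheath genes tested, 12 rose and 0 fell (median log2 fold change 8.26, against 0.06 over all genes). *Krt71*, a keratin of the inner root sheath (chr15:101733949-101743109, - strand, GRCm38), had 0.42, 0 and 0.17 CPM in WT and 220.3, 1120.3 and 1808 CPM in WT_ZnO NPs libraries. Its groups did not overlap (log2 fold change 12.40 ± 2.94, adjusted p = 0.00671, ± giving the standard error). *Krt25* and *Krt27*, sheath keratins of the other type, rose with log2 fold changes of 12.10 and 9.79 (adjusted p = 0.00628 and 0.00714), and *Krt73* rose by 11.30 (adjusted p = 0.00101). *Krt72* and *Krt26* had no count in the WT libraries, and against a floor of 3 counts over the WT group they were at least 852-fold and 749.7-fold higher. *Tchh*, trichohyalin, which hardens the sheath, rose from 4.95, 3.58 and 5.82 CPM to 127, 711 and 764 CPM (log2 fold change 6.80 ± 1.94, adjusted p = 0.0166). *Padi3*, a deiminase that modifies trichohyalin, had a log2 fold change of 6.71 (adjusted p = 0.0135). The summed level of the inner root sheath list was 104, 97.9 and 116 CPM in WT and 1129.9, 3986 and 5677 CPM in WT_ZnO NPs libraries. It was 13006, 174 and 3832 CPM in the 3 KO libraries and 9425, 7056 and 409 CPM in the 3 KO_ZnO NPs libraries, so a single vehicle KO library was near the WT level and the other 2 were above 3000.

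Hair shaft keratin genes rose as well. *Krt35*, an early shaft keratin (chr11:100092193-100096241, - strand), had 0.168, 0.0702 and 0.212 CPM in WT and 307, 795 and 621 CPM in WT_ZnO NPs libraries, with no overlap (log2 fold change 11.89 ± 2.09, adjusted p = 0.00135). *Krt31*, another shaft keratin, was 2755-fold (95% counting interval 943 to 13364) higher, from 3 counts over the WT group, with 53.4, 201 and 84.6 CPM in the WT_ZnO NPs libraries. *Krt33b* was without a count in WT and at least 1128-fold higher. *Krt86*, a shaft keratin, had 0.126, 0.0351 and 0.127 and 8.52, 51.4 and 17.2 CPM and did not pass the test (adjusted p = 0.063), although its groups did not overlap. In all, 11 of 17 shaft keratin genes tested rose and 0 fell. Their median log2 fold change was 8.75, or 8.32 with the genes at 0 set to their bound. Of the keratin-associated proteins, which embed the shaft keratins, 11 of 54 tested rose in the fit of all 12 libraries, beside 20.8% of all genes. In a fit of the 6 libraries alone it was 47 of 47, beside 25.7%, where members near 0 in WT could pass the filter only by being high in WT_ZnO NPs, and nothing is read from either count. *Krtap7-1* had 0, 0.0351 and 0.0425 CPM in WT, 50.4, 179.7 and 61 CPM in WT_ZnO NPs, 442, 0 and 17.1 CPM in KO and 162, 6.75 and 0.61 CPM in KO_ZnO NPs libraries, and *Krtap11-1* and *Krtap8-1* were similarly uneven among the KO libraries. Ratios to WT were 3539.8-fold (95% counting interval 979.5 to 29236), 4555-fold (95% counting interval 817 to 179958) and 2498-fold (95% counting interval 854 to 12116) for *Krtap7-1*, *Krtap11-1* and *Krtap8-1*. Many members of these hair lists are near 0 in WT and passed the filter through groups in which they are high, so their counts and medians are a description only. Reads of the near-identical keratin-associated genes could have been split between copies.

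Regulators of follicle growth rose in greater number than they fell. Of 40 genes of the hair matrix and the growth phase, 29 rose and 2 fell (median 1.80). *Shh*, the signal that matrix cells send to drive follicle growth (chr5:28456815-28467256, - strand), had 0.252, 0.0351 and 0.34 CPM in WT and 16.6, 49 and 45.3 CPM in WT_ZnO NPs libraries (log2 fold change 7.48 ± 1.36, adjusted p = 0.00164). *Lef1*, the DNA-binding partner of beta-catenin in the matrix, went from 1.55, 0.562 and 2.0 CPM to 32.5, 77.5 and 89.5 CPM (log2 fold change 5.61 ± 0.71, adjusted p = 0.000197). *Hoxc13* and *Dlx1*, transcription factors of shaft differentiation, had log2 fold changes of 6.78 and 8.11 (adjusted p = 0.000507 and 0.00065). *Foxn1*, whose loss gives nude mice, rose by 3.05 (adjusted p = 0.00563). *Fgf5*, the factor that ends the growth phase, also rose, from 0, 0.211 and 0.212 to 3.56, 9.55 and 7.2 CPM (log2 fold change 5.51 ± 1.43, adjusted p = 0.0107). In the follicle stem cell list 12 of 20 genes rose and 2 fell. *Lgr5* had 9.78, 5.16 and 7.65 CPM in WT and 67.3, 56.9 and 59.5 CPM in WT_ZnO NPs libraries (log2 fold change 3.02 ± 0.27, adjusted p = 3.72e-05). *Sox9* and *Lhx2*, transcription factors of the stem cells, rose by 2.42 and 3.73 (adjusted p = 0.00107 and 0.00127). *Cd34*, a surface marker of bulge stem cells that vessels also carry, fell from 314, 375 and 464 CPM to 73.7, 149 and 90.5 CPM (log2 fold change -1.88 ± 0.28, adjusted p = 0.000535). *Krt75*, the keratin of the companion layer, rose by 5.95 and *Krt17* by 2.04 (adjusted p = 0.00459 and 0.000735). *Defb8*, a beta-defensin, was without a count in the WT, KO and KO_ZnO NPs libraries and had 27.6, 3.84 and 53.2 CPM in the WT_ZnO NPs libraries, at least 742-fold higher than WT.

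Several of these hair calls were lost when 1 library was left out, which leaves fewer samples to the test. Those of *Krt72*, *Krt26* and *Krt33b* were lost whichever of the 6 libraries was left out (adjusted p up to 0.0915, 0.0793 and 0.0936), with fitted log2 fold changes of 12.34 to 12.92, 12.22 to 12.64 and 11.71 to 13.53, which against a group at 0 are no bounds. Without any one WT replicate the test no longer called *Krtap11-1*, *Krtap7-1*, *Krtap8-1*, *Tchh* and *Dsg4*, a desmoglein of the shaft (adjusted p up to 0.0698, 0.0743, 0.0842, 0.0628 and 0.0566), and *Padi3* lost its call without WT replicate 1 (adjusted p up to 0.0506). The log2 fold changes of *Tchh* and *Padi3* in the 6 fits without 1 library lay between 6.45 and 7.27 and between 6.45 and 7.06. In the covariate fit they were 4.49 and 3.81 (adjusted p = 0.179 and 0.162). With Y-linked transcripts as a covariate, 2 of 13 inner root sheath, 1 of 17 shaft keratin, 0 of 54 keratin-associated and 20 of 40 matrix genes were higher, as were 9 of 20 stem cell genes. In that fit *Krt71* had a log2 fold change of 10.29 (adjusted p = 0.0597), *Krt35* one of 9.97 (0.0167) and *Shh* one of 7.56 (0.0199). Others shrank more: it was 1.48 for *Krt86*, 5.99 for *Krtap7-1*, 5.47 for *Krtap8-1*, 2.80 for *Fgf5* and 1.30 for *Foxn1* (adjusted p = 0.723, 0.15, 0.171, 0.169 and 0.135). *Krt86*, like the inner root sheath sum, was highest in replicate 1 of both KO groups. It had 279, 0 and 19.9 CPM in KO and 140, 0.66 and 0.13 CPM in KO_ZnO NPs libraries. A Y-linked effect cannot be told apart here from another difference of the replicate 1 libraries.

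**Figure D3:**
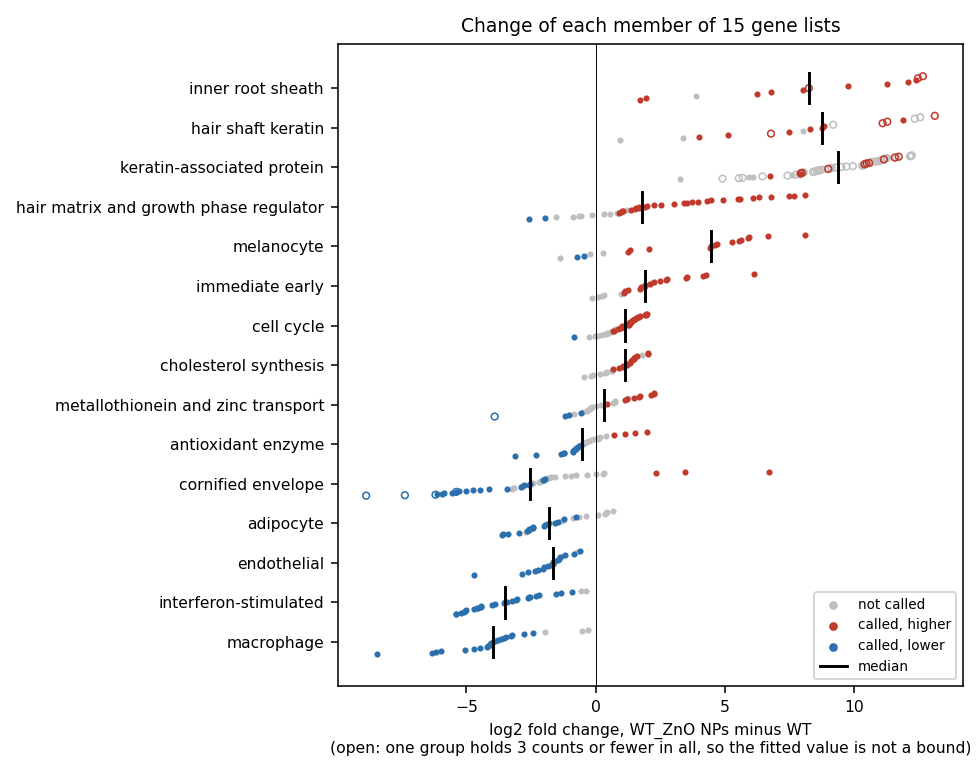
Log2 fold change, WT_ZnO NPs minus WT, of every tested member (points) of the gene lists described, with the median of each list as a line; open points have 3 counts or fewer in one group. Hair lists spread to the right of 0, melanocyte genes centre on 4.47, and macrophage and interferon-stimulated genes lie to the left, at medians of -3.98 and -3.51.

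Pigment genes were higher in the libraries labelled WT_ZnO NPs. Of 19 melanocyte genes tested, 14 rose, 2 fell and 3 did not pass the test (median log2 fold change 4.47). *Tyr*, tyrosinase, the rate-limiting enzyme of melanin synthesis (chr7:87424771-87493512, - strand), had 1.18, 0.737 and 1.87 CPM in WT and 27.6, 91.1 and 58.1 CPM in WT_ZnO NPs libraries. The groups stood apart (log2 fold change 5.55 ± 0.70, adjusted p = 0.000197). The 2 related melanin enzymes *Tyrp1* and *Dct* went from 11.8, 2.95 and 7.52 to 76.6, 242 and 173 CPM and from 15.8, 6.7 and 15.6 to 137, 422 and 266 CPM, with log2 fold changes of 4.47 and 4.44 (adjusted p = 0.000486 and 0.000518). *Mlana* and *Pmel*, proteins of the melanosome, rose by 6.66 and 5.91 (adjusted p = 4.01e-05 and 0.000276). *Mlana* had 0.42, 0.421 and 0.595 CPM in WT and 21.9, 68.5 and 56.4 CPM in WT_ZnO NPs libraries. The melanosomal transporters *Oca2*, *Slc45a2* and *Slc24a5* rose by 8.11, 5.62 and 4.61 (adjusted p = 0.000388, 0.000188 and 0.000285). The receptors *Mc1r*, which sets the type of melanin, and *Gpr143*, on the melanosome, rose by 4.70 and 5.94 (adjusted p = 0.000133 and 0.000419), and the channel gene *Trpm1* rose by 5.29 (adjusted p = 0.000394). *Kit*, the receptor needed for melanoblast survival, had 14.8, 8.35 and 11.5 CPM and 24.9, 61.9 and 59.6 CPM (log2 fold change 2.08 ± 0.36, adjusted p = 0.00117). *Mlph*, which tethers melanosomes, rose by 1.34 (adjusted p = 0.00725), and *Sox10*, a transcription factor of the neural crest, by 1.24 (adjusted p = 0.0358).

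Not all pigment genes rose. *Mitf*, the master transcription factor of melanocytes, fell from 35.5, 41.5 and 39.4 to 26.9, 30.1 and 27.9 CPM (log2 fold change -0.46 ± 0.14, adjusted p = 0.0233), and *Myo5a*, the motor that carries melanosomes, fell by 0.72 on the log2 scale (adjusted p = 0.0335). Both genes are also expressed in other skin cells. *Rab27a*, its adaptor, *Ednrb*, an endothelin receptor, and *Gpnmb*, a melanosome protein that macrophages also make, had log2 fold changes of -0.20, -1.38 and 0.30 and did not pass the test (adjusted p = 0.407, 0.141 and 0.672). The call of *Sox10* was lost whichever of the 6 libraries was left out (adjusted p up to 0.113), that of *Mitf* without WT replicate 2, WT replicate 3, WT_ZnO NPs replicate 1 or WT_ZnO NPs replicate 3 (adjusted p up to 0.0808) and that of *Myo5a* without WT replicate 2, WT replicate 3, WT_ZnO NPs replicate 1 or WT_ZnO NPs replicate 3 (adjusted p up to 0.11). With Y-linked transcripts as a covariate, 14 genes of the list were higher and 0 lower, *Tyr* with a log2 fold change of 5.53 (adjusted p = 0.00542) and *Mlana* with 5.80 (adjusted p = 0.00133). *Tyr* is shown with its promoter, from 250 bases before to 50 after the RefSeq start (GRCm38.p6, chr7:87493463-87493762, minus strand), since CATGTG, the core of the M-box that MITF binds, lies in it. Capitals mark the match.

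Tyr: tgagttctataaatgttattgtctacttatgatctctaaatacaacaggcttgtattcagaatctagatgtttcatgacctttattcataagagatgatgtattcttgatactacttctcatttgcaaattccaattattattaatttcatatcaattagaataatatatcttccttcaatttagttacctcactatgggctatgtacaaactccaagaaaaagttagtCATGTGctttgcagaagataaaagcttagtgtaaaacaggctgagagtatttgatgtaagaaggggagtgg

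Searched on both strands, CATGTG occurred in 14.2% of 32851 RefSeq promoters of that length and in 7 of the 14 melanocyte genes with a promoter in the table. Such a match describes the letters of the window only.

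Dividing-cell genes rose. In the cell cycle list 26 of 40 genes were higher and 1 was lower (median 1.16). *Mki67*, present in cycling cells, had 74.7, 73.4 and 156 CPM in WT and 259, 385 and 548 CPM in WT_ZnO NPs libraries (log2 fold change 1.97 ± 0.37, adjusted p = 0.00204). *Top2a*, which untangles replicated DNA, and *Ccnb1*, the cyclin of mitotic entry, rose by 1.51 and 1.47 (adjusted p = 0.00497 and 0.00938). *Ccnd3*, a cyclin of early division, fell from 82.5, 81.9 and 89.7 to 41.6, 55.5 and 44.3 CPM (log2 fold change -0.85 ± 0.14, adjusted p = 0.00102). With the covariate 13 genes of this list were higher and 1 was lower. The immediate early genes, which answer growth and stress signals within minutes, gave 17 rises and 0 falls among 24 (median 1.92). *Fosb* had 33.9, 9.06 and 1.19 CPM in WT and 616, 2273 and 236 CPM in WT_ZnO NPs libraries, uneven within both groups (log2 fold change 6.15 ± 1.61, adjusted p = 0.0113). *Fos* and *Jun*, which pair as the AP-1 factor, went from 95.1, 65.2 and 38.2 to 1312, 2051 and 480.4 CPM and from 124, 107 and 91 to 741, 1199.6 and 204 CPM, and *Egr1*, a zinc finger factor, from 65.2, 51.4 and 31.2 to 818, 1459.7 and 361 CPM. Their log2 fold changes were 4.27, 2.73 and 4.16 (adjusted p = 0.00454, 0.00349 and 0.000759), and for each of the 4 genes WT_ZnO NPs replicate 3 was the lowest of its group. With the covariate 4 immediate early genes were higher. *Ccn1*, a matrix protein induced with them, rose by 3.35 (adjusted p = 0.00799). Of 18 heat shock genes 8 rose and 0 fell, among them *Hspa1a* (log2 fold change 1.39, adjusted p = 0.0101) and *Hspa2* (1.89, 0.00656). With the covariate 1 heat shock gene was higher, and *Hspa1a* and *Hspa2* had adjusted p of 0.114 and 0.219. *Hspa1a* has a near-identical neighbour with which reads could be shared.

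Terminal differentiation genes of the epidermis fell while basal genes rose in part. Of 19 basal keratinocyte and hemidesmosome genes 9 rose and 2 fell (median 0.56). *Krt5*, the basal keratin, had 1838, 1389.6 and 1909.8 CPM in WT and 4387, 2827 and 2677 CPM in WT_ZnO NPs libraries (log2 fold change 0.95 ± 0.28, adjusted p = 0.0181), a call lost without WT replicate 2 or WT_ZnO NPs replicate 1 (adjusted p up to 0.079). Its partner *Krt14* had 2728, 2314 and 3257 and 4541, 2515 and 2213 CPM and overlapped between groups (log2 fold change 0.16, adjusted p = 0.696). *Cdh3*, P-cadherin, an adhesion protein of basal and matrix cells, rose from 15.2, 9.79 and 14.3 to 98, 154 and 160.2 CPM (log2 fold change 3.39 ± 0.28, adjusted p = 2.7e-05), and *Itgb1*, the integrin beta chain that holds cells to the basement membrane, fell from 530.0, 652 and 571 to 268, 328 and 247 CPM (log2 fold change -1.06 ± 0.21, adjusted p = 0.00251). In the suprabasal list 2 genes rose and 8 fell of 17. *Krt10* had 3101, 1838 and 2229 CPM in WT and 532, 486 and 428 CPM in WT_ZnO NPs libraries, well separated (log2 fold change -2.31 ± 0.50, adjusted p = 0.00436). *Krt1*, its partner, and *Krt77* fell, with log2 fold changes of -2.12 and -2.53 (adjusted p = 0.00892 and 0.0068). *Krt2*, a keratin of the upper layers, was higher, but at 0.336, 0.105 and 0.255 CPM in WT and 1.16, 3.34 and 6.13 CPM in WT_ZnO NPs libraries (log2 fold change 3.92, adjusted p = 0.00894).

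Among 51 cornified envelope genes 3 rose and 22 fell (median -2.53). *Lor*, loricrin, the main envelope protein, had 2085, 972 and 1337 CPM in WT and 139, 419.8 and 189.9 CPM in WT_ZnO NPs libraries (log2 fold change -2.55 ± 0.87, adjusted p = 0.0351). *Ivl*, involucrin, and *Hrnr*, hornerin, fell (log2 fold changes -2.01 and -2.79, adjusted p = 0.0214 and 0.0194), and *Padi3*, already given with the sheath, is among the 3 that rose. *Flg*, filaggrin, which bundles keratins, had 329.9, 107 and 300.0 and 25.5, 137 and 35.6 CPM, overlapping (log2 fold change -1.90, adjusted p = 0.104), and *Tgm1*, the enzyme that cross-links the envelope, had a log2 fold change of -0.77 (adjusted p = 0.265). *Lce3a*, a late envelope protein, was without a count in the WT_ZnO NPs libraries and at least 60.9-fold lower than WT at 1.51, 3.37 and 2.55 CPM. The *Lor* call was lost without WT replicate 1, WT replicate 3, WT_ZnO NPs replicate 1 or WT_ZnO NPs replicate 3 (adjusted p up to 0.11), the *Ivl* call without WT replicate 1, WT_ZnO NPs replicate 1 or WT_ZnO NPs replicate 3 (adjusted p up to 0.0808) and the *Hrnr* call without WT replicate 1, WT_ZnO NPs replicate 1 or WT_ZnO NPs replicate 3 (adjusted p up to 0.0744). With the covariate *Lor*, *Ivl* and *Hrnr* were called with log2 fold changes of -4.27, -3.10 and -4.38 (adjusted p = 0.026, 0.026 and 0.0248). Under the covariate 22 envelope genes were lower and 0 higher, and in a fit of the 6 libraries alone 36 of 49 were lower, beside 23.3% of all genes in that fit. The covariate left 4 basal genes higher and 1 lower and 8 suprabasal genes lower.

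Proteases that shed the surface layer and their inhibitors gave 4 rises and 11 falls among 18. *Klk5* and *Klk7*, which cut the links between corneocytes, had 64.4, 50.3 and 47.6 and 716, 539.5 and 615 CPM in WT and 5.88, 9.32 and 9.1 and 144, 168 and 137 CPM in WT_ZnO NPs libraries. Both fell (log2 fold changes -2.74 and -2.06, adjusted p = 0.00354 and 0.00315). Their inhibitor *Spink5* fell too (log2 fold change -3.22 ± 0.65, adjusted p = 0.00295), whereas *St14*, matriptase, which acts upstream of them, rose from 50.1, 33.7 and 40.5 to 149, 242 and 232 CPM (log2 fold change 2.33 ± 0.32, adjusted p = 0.00034). Of 26 barrier lipid genes 2 rose and 13 fell. *Alox12b*, a lipoxygenase of the lipid envelope, and *Abca12*, the lipid carrier of lamellar granules, fell (log2 fold changes -3.04 and -1.93, adjusted p = 0.00373 and 0.00371), and *Cers4*, a ceramide synthase found in sebaceous glands, rose from 154, 85.2 and 184 to 1146, 451 and 607 CPM (log2 fold change 2.38 ± 0.55, adjusted p = 0.00614). Desmosome genes gave 5 rises and 2 falls among 16. *Dsc1*, the desmocollin of the upper epidermis, went from 273, 222 and 234 to 19.3, 30.7 and 29.7 CPM (log2 fold change -3.19 ± 0.69, adjusted p = 0.00419). Adherens and tight junction genes rose in 12 and fell in 3 of 26 cases. Among stress keratins and wound genes 2 rose and 8 fell of 20. *Krt6b*, a wound keratin, fell from 64.5, 330.2 and 236 to 4.68, 4.57 and 1.46 CPM (log2 fold change -5.88, adjusted p = 0.00643), while its near-identical neighbour *Krt6a* had 179.6, 463 and 379 and 553, 249 and 137 CPM and overlapped between groups. With the covariate the protease list gave 3 rises and 11 falls, barrier lipids 0 and 12, desmosomes 1 and 1, junctions 1 and 2 and stress keratins 1 and 4, so that most junction rises were not called. In the fit of the 6 libraries 4 stress keratin genes were higher and 12 lower, beside 25.7% and 23.3% of all genes in that fit.

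Cholesterol synthesis genes were among those that moved one way. Of 24 tested, 15 rose and 0 fell (median 1.14), and 14 were higher with the covariate. *Lss*, which closes the sterol rings, had 50.5, 40.5 and 49 CPM in WT and 239.6, 153 and 186 CPM in WT_ZnO NPs libraries (log2 fold change 2.05 ± 0.28, adjusted p = 0.000296). *Sqle*, which prepares squalene for that step, had 103, 87.2 and 90 and 197, 168 and 167 CPM (log2 fold change 0.92 ± 0.23, adjusted p = 0.00869). In the sebaceous gland list 7 genes rose and 2 fell of 24, or 2 and 0 with the covariate. *Fa2h* and *Elovl3*, which make hydroxylated and long-chain lipids of sebum, had 190.2, 64.1 and 245 and 69.9, 26.8 and 80.7 CPM in WT and 1579, 670.5 and 782 and 486, 179.6 and 207 CPM in WT_ZnO NPs libraries (log2 fold change 2.60 and 2.30, adjusted p = 0.0131 and 0.012).

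Zinc-handling genes, which the treatment bears on most directly, moved both ways. Of 26 metallothionein and zinc transport genes tested, 9 rose, 4 fell and 13 did not pass the test (median 0.33). *Mt1*, a metallothionein that buffers zinc (chr8:94179082-94180327, + strand), had 144, 279.8 and 165 CPM in WT and 354, 808 and 728 CPM in WT_ZnO NPs libraries. Its groups did not overlap (log2 fold change 1.68 ± 0.47, adjusted p = 0.0155). *Mt2*, its neighbour, had 0.839, 2.18 and 0.722 CPM and 3.24, 5.3 and 8.19 CPM (log2 fold change 2.15 ± 0.60, adjusted p = 0.0155); it overlaps the annotated gene *Gm45774*, so reads could have been left uncounted. *Mt4*, the metallothionein of stratified epithelia, rose from 38, 13.1 and 26 to 89.5, 150.3 and 125 CPM (log2 fold change 2.24 ± 0.63, adjusted p = 0.0155), and *Mt3*, the brain form, had 1.72, 2.04 and 1.61 and 4.48, 1.42 and 3.09 CPM and overlapped (adjusted p = 0.257). In the vehicle KO libraries *Mt1* had 183, 167 and 125 CPM and in the KO_ZnO NPs libraries 779, 1394 and 361 CPM, where its log2 fold change was 2.42 (adjusted p = 0.0134). The *Mt1* call was lost without WT replicate 1 or WT replicate 3 (adjusted p up to 0.0601), the *Mt2* call without WT replicate 1, WT replicate 3 or WT_ZnO NPs replicate 3 (adjusted p up to 0.0615) and the *Mt4* call without WT replicate 2 (adjusted p up to 0.0603). In the fit with the covariate *Mt1* and *Mt2* had log2 fold changes of 1.60 and 2.07 (adjusted p = 0.138 and 0.135), and *Mt4* and the zinc exporter gene *Slc30a1* had 0.78 and 0.73 (adjusted p = 0.41 and 0.352). The promoters of *Mt1* (GRCm38.p6, chr8:94178839-94179138, plus strand) and *Mt2* (chr8:94172368-94172667, plus strand) are shown because metallothionein genes are switched on through metal response elements. Capitals mark the core of that element, TGCACNC or TGCGCNC, on either strand, with 3 matches in *Mt1* and 4 in *Mt2*.

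Mt1: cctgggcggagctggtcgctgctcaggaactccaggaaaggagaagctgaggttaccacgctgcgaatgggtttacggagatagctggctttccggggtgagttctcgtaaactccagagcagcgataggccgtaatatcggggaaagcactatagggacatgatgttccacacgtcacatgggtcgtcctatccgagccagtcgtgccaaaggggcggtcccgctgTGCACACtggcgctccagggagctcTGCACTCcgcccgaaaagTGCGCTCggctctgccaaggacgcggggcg

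Mt2: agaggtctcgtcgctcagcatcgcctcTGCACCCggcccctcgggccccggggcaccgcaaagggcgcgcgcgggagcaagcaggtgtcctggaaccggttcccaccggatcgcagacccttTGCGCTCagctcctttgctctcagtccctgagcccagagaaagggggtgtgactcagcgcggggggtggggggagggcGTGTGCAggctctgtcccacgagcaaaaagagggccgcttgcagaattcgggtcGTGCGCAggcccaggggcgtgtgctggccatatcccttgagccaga

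This core occurred in 25.7% of all promoters and in 13 of the 23 genes of the list with a promoter.

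Among zinc exporters, *Slc30a1*, which moves zinc out of the cell, had 69, 69.5 and 67.3 CPM in WT and 87, 196 and 201 CPM in WT_ZnO NPs libraries (log2 fold change 1.23, adjusted p = 0.0239). *Slc30a2* and *Slc30a9* rose by 1.16 and 0.44 (adjusted p = 0.0391 and 0.00811), and *Slc30a7*, which loads the secretory pathway, fell by 0.58 (adjusted p = 0.0034). *Slc30a4* and *Slc30a5* had log2 fold changes of -0.47 and -0.21 and did not pass the test (adjusted p = 0.0879 and 0.1). Of the importers, *Slc39a10*, at the cell surface, went from 63.6, 49.2 and 56.6 to 111, 274 and 425 CPM (log2 fold change 2.26 ± 0.50, adjusted p = 0.00469), and *Slc39a5* and *Slc39a6* rose by 1.70 and 1.48 (adjusted p = 0.00182 and 0.0245). *Slc39a1*, a widely expressed importer, fell from 147, 189 and 166 to 80.8, 84.1 and 78.2 CPM (log2 fold change -1.05 ± 0.13, adjusted p = 0.00017), and *Slc39a7*, which releases zinc from the endoplasmic reticulum, fell by 1.17 (adjusted p = 0.00122). *Slc39a12* was 17.6-fold (95% counting interval 4.54 to 151) lower on 2 counts in the WT_ZnO NPs group. Its fitted log2 fold change of -3.91 was -6.54 without WT_ZnO NPs replicate 3 and -1.84 with the covariate (adjusted p = 0.393). The log2 fold changes of *Slc39a2*, *Slc39a3* and *Slc39a9* were -0.85, -0.35 and -0.28, and those of *Slc39a8*, *Slc39a11* and *Slc39a14* were 1.24, 0.66 and 0.75; these 6 did not pass the test (adjusted p from 0.0567 to 0.188), nor did *Slc30a6*, *Slc39a4*, *Slc39a13* and *Mtf1*, the zinc-sensing transcription factor. Leaving out 1 library moved *Slc39a8* to 0.43 (without WT_ZnO NPs replicate 3), *Slc39a11* to 0.43 (without WT_ZnO NPs replicate 1; it passed the test without WT_ZnO NPs replicate 2) and *Slc39a14* to 0.42 (without WT_ZnO NPs replicate 2). *Slc30a1* lost its call without WT replicate 1, WT replicate 2, WT replicate 3, WT_ZnO NPs replicate 2 or WT_ZnO NPs replicate 3 (adjusted p up to 0.0849), *Slc30a2* without WT replicate 1, WT replicate 2, WT replicate 3, WT_ZnO NPs replicate 1 or WT_ZnO NPs replicate 3 (adjusted p up to 0.201) and *Slc39a6* without WT replicate 1, WT replicate 2, WT replicate 3, WT_ZnO NPs replicate 2 or WT_ZnO NPs replicate 3 (adjusted p up to 0.0775). Without WT_ZnO NPs replicate 1 the log2 fold change of *Slc30a2* was 0.57. With the covariate 0 zinc genes rose and 2 fell.

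Antioxidant enzymes fell in 14 and rose in 4 of 28 cases (median -0.53). *Sod3*, the extracellular superoxide dismutase, had 212, 291 and 246 CPM in WT and 27.5, 37.1 and 21.6 CPM in WT_ZnO NPs libraries (log2 fold change -3.12 ± 0.28, adjusted p = 3.74e-05). The cytosolic and mitochondrial forms *Sod1* and *Sod2* had log2 fold changes of -0.36 and -0.17 and did not pass the test (adjusted p = 0.132 and 0.419). *Gpx1*, a glutathione peroxidase, fell from 638, 684 and 487 to 250.1, 253 and 219.5 CPM (log2 fold change -1.32 ± 0.19, adjusted p = 0.00041), and *Cat*, catalase, by 1.21 on the log2 scale (adjusted p = 0.0312), a call lost without WT replicate 2, WT replicate 3, WT_ZnO NPs replicate 1, WT_ZnO NPs replicate 2 or WT_ZnO NPs replicate 3 (adjusted p up to 0.118). *Gclc* and *Gclm*, the subunits of the enzyme that limits glutathione synthesis, rose by 1.51 and 1.15 (adjusted p = 0.00116 and 9.12e-05). *Gclm* went from 32.2, 39.2 and 41.6 to 77.7, 89.9 and 83 CPM. *Hmox1*, heme oxygenase, which macrophages express at high level, fell from 132, 342 and 242 to 15.6, 30.2 and 16 CPM (log2 fold change -3.53 ± 0.50, adjusted p = 0.000357), and *Ftl1*, the ferritin light chain, by 2.27 (adjusted p = 0.000104). *Nfe2l2*, the NRF2 factor itself, had 94.1, 113 and 104 and 69.8, 96.6 and 64.8 CPM, overlapping, with an adjusted p of 0.042 that was lost without WT replicate 2, WT replicate 3, WT_ZnO NPs replicate 1 or WT_ZnO NPs replicate 3 (adjusted p up to 0.154). The NRF2 list gave 3 rises and 11 falls among 31. With the covariate 1 antioxidant gene was higher and 3 were lower, and 1 NRF2 gene was higher and 6 were lower.

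Genes of protein folding stress fell in 15 and rose in 1 of 26 cases. *Hspa5*, the chaperone of the endoplasmic reticulum, had 755, 751 and 583 and 458, 539 and 409 CPM (log2 fold change -0.57, adjusted p = 0.024), a call lost without WT replicate 1, WT replicate 2, WT_ZnO NPs replicate 1 or WT_ZnO NPs replicate 3 (adjusted p up to 0.0925), and *Atf4*, the factor of the integrated stress response, rose by 0.86 (adjusted p = 0.00473). In the NF-kB list 0 genes rose and 9 fell of 30. In the apoptosis and p53 list 3 rose and 13 fell of 37. With the covariate 0 folding stress genes were higher and 5 lower, 0 NF-kB genes higher and 0 lower, and 3 apoptosis genes higher and 7 lower. A further list holds genes whose products the study assayed by other methods, in mouse skin or cultured human melanocytes, so that its direction is no independent evidence. In it, 3 of 24 genes rose and 11 fell, or 4 and 8 with the covariate. *Bcl2*, which protects from apoptosis, had 15.4, 17.1 and 15.8 and 22.4, 19.9 and 23.9 CPM (log2 fold change 0.45, adjusted p = 0.0801), and was called with the covariate (log2 fold change 0.92, adjusted p = 0.0179). *Bax*, which promotes apoptosis, *Rela*, the NF-kB subunit p65, *Thbs1*, thrombospondin 1, and *Fkbp5*, a glucocorticoid target, had log2 fold changes of -0.33, -0.25, 0.37 and -0.47 and did not pass the test (adjusted p = 0.191, 0.199, 0.618 and 0.196).

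Macrophage genes were lower in the libraries labelled WT_ZnO NPs. Of 25 tested, 22 fell and 0 rose (median -3.98). Their summed level was 6001, 7879.6 and 6562 CPM in WT and 352, 728 and 429 CPM in WT_ZnO NPs libraries. *Adgre1*, which encodes the macrophage antigen F4/80 (chr17:57358691-57483527, + strand), had 267, 359 and 252 CPM in WT and 6.08, 13.9 and 6.37 CPM in WT_ZnO NPs libraries (log2 fold change -5.06 ± 0.49, adjusted p = 4.64e-05). *Cd68*, a lysosomal protein of phagocytes, went from 264, 269 and 264 to 9.04, 16.9 and 10.3 CPM (log2 fold change -4.46 ± 0.45, adjusted p = 5.91e-05). *Csf1r*, the receptor for the macrophage growth factor, and *Cd163*, the haemoglobin scavenger receptor, fell (log2 fold changes -3.29 and -4.22, adjusted p = 0.000116 and 0.000394). *Fcgr1*, the high-affinity IgG receptor, had 221, 170.1 and 95.5 CPM and 1.8, 2.7 and 1.58 CPM (log2 fold change -6.32 ± 0.38, adjusted p = 1.22e-05). *Msr1*, a scavenger receptor, and *Ccr1*, a chemokine receptor, fell (log2 fold changes -6.18 and -6.35, adjusted p = 7.19e-05 and 4.01e-05). *Chil3*, a chitinase-like protein of alternatively activated macrophages, went from 425, 179 and 147 to 0.16, 1.51 and 0.514 CPM (log2 fold change -8.45 ± 1.16, adjusted p = 0.000309). *Gdf3*, a growth factor of the TGF-beta family, fell from 19.3, 32.4 and 23.6 to 0.12, 0.0457 and 0.0396 CPM (log2 fold change -8.40, adjusted p = 0.000174). With the covariate 20 of the macrophage genes were lower.

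Several of the largest falls among called, non-overlapping protein-coding genes of at least 10 CPM were in genes of myeloid cells. *Ly6c2*, a surface marker of monocytes, *Ms4a4c* and *Fcna*, a lectin of phagocytes, fell (log2 fold changes -7.60, -6.83 and -6.69, adjusted p = 0.000637, 5.17e-05 and 0.00738), and *Tlr9*, the receptor for unmethylated DNA, had a log2 fold change of -6.10 (adjusted p = 0.000239). *Trim30d* and *Phf11b*, members of mouse gene families that interferon induces, fell (log2 fold changes -6.46 and -6.33, adjusted p = 2.03e-05 and 3.21e-05). *Mup22*, a major urinary protein, had 0.546, 116 and 151 CPM in WT and 0.52, 0.183 and 0.277 CPM in WT_ZnO NPs libraries, with WT replicate 1 at the WT_ZnO NPs level and a call lost without WT_ZnO NPs replicate 2 or WT_ZnO NPs replicate 3 (adjusted p up to 0.0638). *Ly6c2*, *Mup22*, *Trim30d* and *Phf11b* belong to families of near-identical copies between which reads could be split. T cell genes fell in 10 and rose in 0 of 26 cases. *Cd3e*, a part of the T cell receptor, had 6.13, 2.04 and 3.91 and 3.24, 3.34 and 2.41 CPM, overlapping (log2 fold change -0.42, adjusted p = 0.413), while *Cd4* fell (log2 fold change -1.93, adjusted p = 0.0274), a call lost without WT replicate 1, WT_ZnO NPs replicate 1 or WT_ZnO NPs replicate 3 (adjusted p up to 0.0952). *Il2ra*, high on regulatory T cells, fell too (log2 fold change -1.58, adjusted p = 0.00866). With the covariate 0 T cell genes were lower. The MHC class II, dendritic and Langerhans cell list gave 18 falls and 0 rises among 24. *Cd74*, the chaperone of MHC class II, fell from 823, 482 and 677 to 238, 417 and 201 CPM (log2 fold change -1.21 ± 0.29, adjusted p = 0.00764), and the co-stimulators *Cd80* and *Cd86* fell (log2 fold changes -3.52 and -2.64, adjusted p = 0.000139 and 0.000254). *Cd207*, langerin, had 35.5, 11.7 and 16.3 and 8.28, 11.7 and 3.8 CPM, overlapping, with an adjusted p of 0.0456 lost without WT replicate 1, WT replicate 3, WT_ZnO NPs replicate 1 or WT_ZnO NPs replicate 3 (adjusted p up to 0.212), and a log2 fold change of -1.42 that was -0.82 without WT replicate 1. With the covariate 5 genes of this list were lower, and *Cd74* had an adjusted p of 0.13.

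Other immune lists had more falls than rises. Mast cell genes gave 7 falls and 1 rise among 14, with *Cma1*, mast cell chymase, going from 97, 56.3 and 92.6 to 9.6, 19 and 16.1 CPM (log2 fold change -2.46 ± 0.73, adjusted p = 0.0199), a call lost without WT_ZnO NPs replicate 1 or WT_ZnO NPs replicate 3 (adjusted p up to 0.0681). Its log2 fold change was -1.25 with the covariate (adjusted p = 0.359). Neutrophil genes gave 9 falls and 1 rise among 18. *S100a9*, a subunit of calprotectin, had 98.6, 126 and 117 and 0.76, 23.3 and 2.37 CPM (log2 fold change -3.69 ± 1.10, adjusted p = 0.0197), with a log2 fold change of -6.18 without WT_ZnO NPs replicate 2 and the call lost without WT_ZnO NPs replicate 3 (adjusted p up to 0.0695). Its partner *S100a8* missed the threshold (log2 fold change -2.44, adjusted p = 0.0553), but was called without WT_ZnO NPs replicate 2 (log2 fold change -3.996, adjusted p = 0.01). *Mpo*, myeloperoxidase, was the gene of the list that rose, at 0.042, 0.105 and 0.085 CPM in WT and 4.0, 2.56 and 5.81 CPM in WT_ZnO NPs libraries, and lost its call without WT replicate 1, WT replicate 2 or WT replicate 3 (adjusted p up to 0.0582). B and plasma cell genes fell in 10 and rose in 0 of 16 cases. *Igkc*, the kappa light chain constant segment, went from 42.3, 121 and 50.4 to 1.68, 7.95 and 8.74 CPM and *Jchain*, which joins secreted IgA, from 13.3, 54.8 and 17.9 to 0.80, 2.06 and 2.41 CPM (log2 fold change -3.54 and -4.03, adjusted p = 0.0142 and 0.00591). Chemokines and their receptors gave 26 falls and 2 rises among 46. *Ccl2*, which draws monocytes, fell (log2 fold change -2.48, adjusted p = 0.0166), a call lost without WT replicate 2 (adjusted p up to 0.0707), and *Cxcl14*, a chemokine of keratinocytes, rose from 43.6, 37.9 and 35.9 to 290.5, 592 and 309 CPM (log2 fold change 3.34 ± 0.73, adjusted p = 0.00449). In the covariate fit *Cxcl14* was not called (log2 fold change 2.05, adjusted p = 0.124). Cytokines and alarmins gave 13 falls and 1 rise among 29. The epithelial interleukin 36 genes *Il1f6*, *Il1f8* and *Il1f9* fell (log2 fold changes -5.08, -3.62 and -3.92, adjusted p = 0.0094, 0.00537 and 0.00129), as did *Il33*, an alarmin of barrier cells (log2 fold change -1.69, adjusted p = 0.00842). *Il6* had 0.629, 1.83 and 0.382 and 1.24, 32 and 0.277 CPM, high in WT_ZnO NPs replicate 2 alone (adjusted p = 0.0977). With the covariate 1 mast cell, 4 neutrophil, 5 B and plasma cell, 11 chemokine and receptor and 10 cytokine and alarmin genes were lower, and 1, 0, 0, 1 and 0 were higher.

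Interferon-stimulated genes were lower in the libraries labelled WT_ZnO NPs in 27 of 29 cases and higher in 0 (median -3.51). *Ifit1*, which binds foreign RNA (chr19:34640871-34650009, + strand), had 124, 68.8 and 88.4 CPM in WT and 2.4, 3.06 and 2.81 CPM in WT_ZnO NPs libraries (log2 fold change -5.09 ± 0.37, adjusted p = 1.73e-05). *Isg15*, a ubiquitin-like protein (chr4:156199424-156200818, - strand), had 128, 76.1 and 67.5 CPM and 5.76, 8.41 and 9.18 CPM (log2 fold change -3.54 ± 0.31, adjusted p = 3.37e-05). *Irf7*, the transcription factor that amplifies the response, went from 715, 259.7 and 260.4 to 13.4, 25.4 and 13.4 CPM (log2 fold change -4.57 ± 0.44, adjusted p = 4.76e-05). *Mx1*, an antiviral GTPase, and *Oas3* and *Oasl1*, of the family that senses double-stranded RNA, fell (log2 fold changes -5.22, -5.42 and -5.41, adjusted p = 2.77e-05, 3.78e-05 and 1.73e-05). With the covariate 25 of these genes were lower, *Ifit1* with a log2 fold change of -4.77 (adjusted p = 0.000822). The summed level was 3829, 2151 and 2322 CPM in WT, 341, 376 and 277 CPM in WT_ZnO NPs, 405, 549 and 527 CPM in KO and 373, 297 and 457 CPM in KO_ZnO NPs libraries. The 3 vehicle WT libraries were thus above each of the other 9. Promoters of *Ifit1* (GRCm38.p6, chr19:34640639-34640938, plus strand) and *Isg15* (chr4:156200769-156201068, minus strand) are shown for the interferon-stimulated response element, whose core, GAAA given 2 times with any 2 bases between the copies, is in capitals on either strand. *Ifit1* has 2 matches and *Isg15* 3 that overlap in a run of 22 bases.

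Ifit1: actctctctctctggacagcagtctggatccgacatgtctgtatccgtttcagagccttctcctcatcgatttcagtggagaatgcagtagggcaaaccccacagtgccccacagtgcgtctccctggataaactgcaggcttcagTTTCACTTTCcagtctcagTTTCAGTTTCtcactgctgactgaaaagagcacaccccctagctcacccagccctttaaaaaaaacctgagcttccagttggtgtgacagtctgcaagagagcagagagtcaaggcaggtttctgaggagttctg

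Isg15: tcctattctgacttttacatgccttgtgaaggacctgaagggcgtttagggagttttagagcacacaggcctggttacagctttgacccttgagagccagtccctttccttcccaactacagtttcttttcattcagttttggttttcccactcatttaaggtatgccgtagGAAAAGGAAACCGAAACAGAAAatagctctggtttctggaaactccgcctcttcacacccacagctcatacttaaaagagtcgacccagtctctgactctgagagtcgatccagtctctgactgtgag

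The core was found in 3.44% of all promoters and in 15 of the 23 genes of the list with a promoter.

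**Figure D4:**
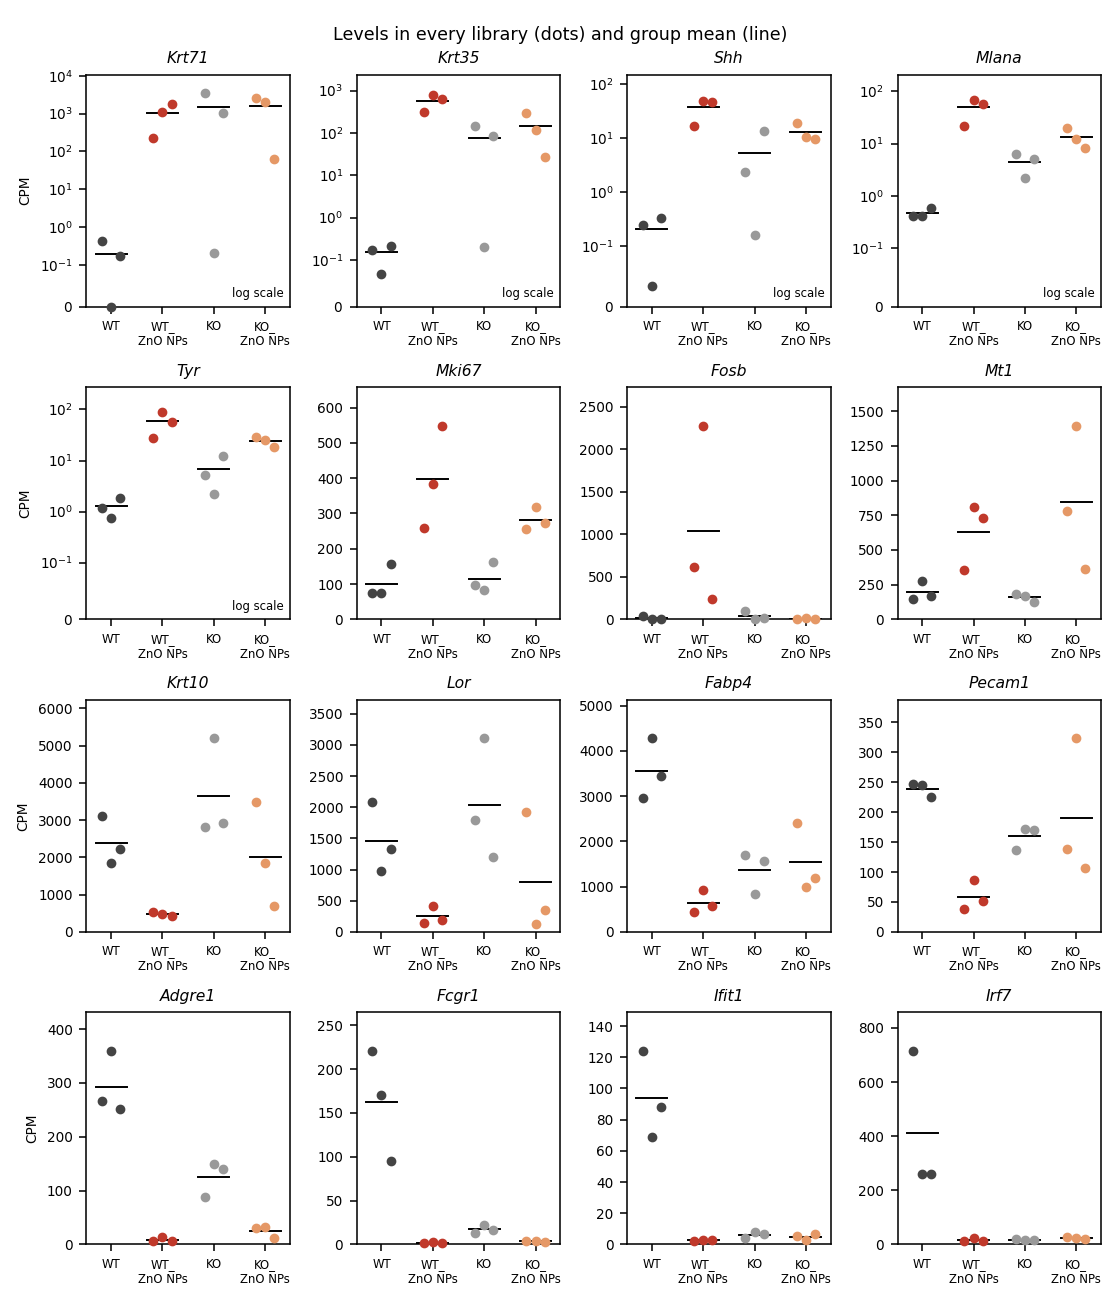
CPM of 16 genes in each of the 12 libraries (points) by group, with the group mean as a line. Axes start at 0; those of *Krt71*, *Krt35*, *Shh*, *Mlana* and *Tyr* are logarithmic above 0.1 CPM and linear below. Hair and pigment genes are low in WT and higher in WT_ZnO NPs, *Krt71* and *Krt35* vary over orders of magnitude among KO libraries, and *Ifit1* and *Irf7* are high in the 3 WT libraries alone.

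Vessel genes fell: of 20 endothelial genes 18 fell and 0 rose (median -1.65), while 7 were lower with the covariate. *Pecam1*, the junction protein CD31, had 247, 245 and 225 CPM in WT and 38.1, 87.3 and 51.5 CPM in WT_ZnO NPs libraries (log2 fold change -2.02 ± 0.40, adjusted p = 0.00267), with an adjusted p of 0.0714 under the covariate. *Vwf*, von Willebrand factor, fell by 2.34 (adjusted p = 0.0004), and the lymphatic genes *Lyve1*, also made by macrophages, and *Prox1* fell (log2 fold changes -4.69 and -2.62, adjusted p = 0.000956 and 0.00158). Adipocyte genes fell in 17 and rose in 0 of 29 cases (median -1.81), and 14 were lower with the covariate. *Fabp4*, the fatty acid carrier of fat cells, went from 2949, 4273 and 3445 to 430.4, 918 and 575 CPM (log2 fold change -2.47 ± 0.42, adjusted p = 0.00112). *Adipoq*, adiponectin, and *Plin1*, which coats lipid droplets, had 464, 452 and 674 and 390.1, 715 and 598 CPM in WT and 49.2, 125 and 75.6 and 51.5, 100.1 and 67.4 CPM in WT_ZnO NPs libraries, with log2 fold changes of -2.67 and -2.96 (adjusted p = 0.0471 and 0.042). Both calls were lost whichever of the 6 libraries was left out (adjusted p up to 0.131 and 0.116). *Nnat*, neuronatin, fell by 3.62 (adjusted p = 0.0231), a call lost without WT replicate 2, WT_ZnO NPs replicate 1 or WT_ZnO NPs replicate 3 (adjusted p up to 0.0849), and *Lep*, leptin, had a log2 fold change of -2.69 (adjusted p = 0.0756).

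Fibroblast and collagen matrix genes gave 14 falls and 3 rises among 41, or 9 and 0 with the covariate. *Pdgfra*, the growth factor receptor of fibroblasts, went from 180.4, 259 and 304 to 31.6, 87 and 47.2 CPM (log2 fold change -2.16 ± 0.38, adjusted p = 0.00138), and *Loxl1*, which cross-links elastin, fell by 2.62 (adjusted p = 0.000119). The collagen genes *Col1a1*, *Col1a2* and *Col3a1* were high in WT_ZnO NPs replicate 2. *Col1a1* had 2221, 996 and 2876 CPM in WT and 2765, 13288 and 3604 CPM in WT_ZnO NPs libraries, overlapping (log2 fold change 1.69 ± 0.59, adjusted p = 0.0394). Its call was lost without WT replicate 1, WT replicate 2 or WT_ZnO NPs replicate 2 (adjusted p up to 0.256), and without WT_ZnO NPs replicate 2 the log2 fold change was 0.65. *Col1a2* and *Col3a1* had log2 fold changes of 1.40 and 0.28 and did not pass the test (adjusted p = 0.0535 and 0.691), and that of *Col1a2* was 0.44 without WT_ZnO NPs replicate 2, while it passed without WT_ZnO NPs replicate 1 or 3. Matrix metalloproteinases and their inhibitors gave 10 falls and 1 rise among 25, or 6 and 1 with the covariate.

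Skeletal muscle genes, from the muscle sheet beneath mouse skin, varied within the groups. Their summed level was 11289.8, 11428 and 13266 CPM in WT and 44960.3, 12744 and 21467 CPM in WT_ZnO NPs libraries, so WT_ZnO NPs replicate 2 lay within the WT range. Of 38 tested, 4 rose and 0 fell, and 1 was higher with the covariate. In the fit of the 6 libraries alone 12 were higher, beside 25.7% of all genes in that fit. *Ttn*, titin, had 196, 161 and 179 and 1917, 761 and 876 CPM (log2 fold change 2.73, adjusted p = 0.016), a call lost without WT replicate 2, WT replicate 3 or WT_ZnO NPs replicate 1 (adjusted p up to 0.0577), and *Mb*, myoglobin, had 68.2, 36.7 and 63.9 and 461, 269 and 273 CPM (log2 fold change 2.57 ± 0.51, adjusted p = 0.00258). *Acta1*, *Ckm* and *Myh4* overlapped between groups (adjusted p = 0.248, 0.285 and 0.548). Nuclear genes of the respiratory chain rose in 21 and fell in 1 of 82 cases and mitochondrially encoded ones in 3 and 0 of 13. Their shares of rises, 25.6% and 23.1%, lay near the 20.8% over all genes. Cytosolic ribosomal protein genes rose in 10 and fell in 1 of 81 cases, where 12.3% higher is below the 20.8% over all genes. In the fit of the 6 libraries 18 were higher and 1 lower, beside 25.7% and 23.3% of all genes in that fit. With the covariate 6 nuclear and 2 mitochondrially encoded respiratory genes and 3 ribosomal genes were higher. Whether differences in the share of muscle, hair, fat or immune tissue between pieces of skin had a part in the gene results was not tested; the list sums above are the measurements.

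**Figure D5:**
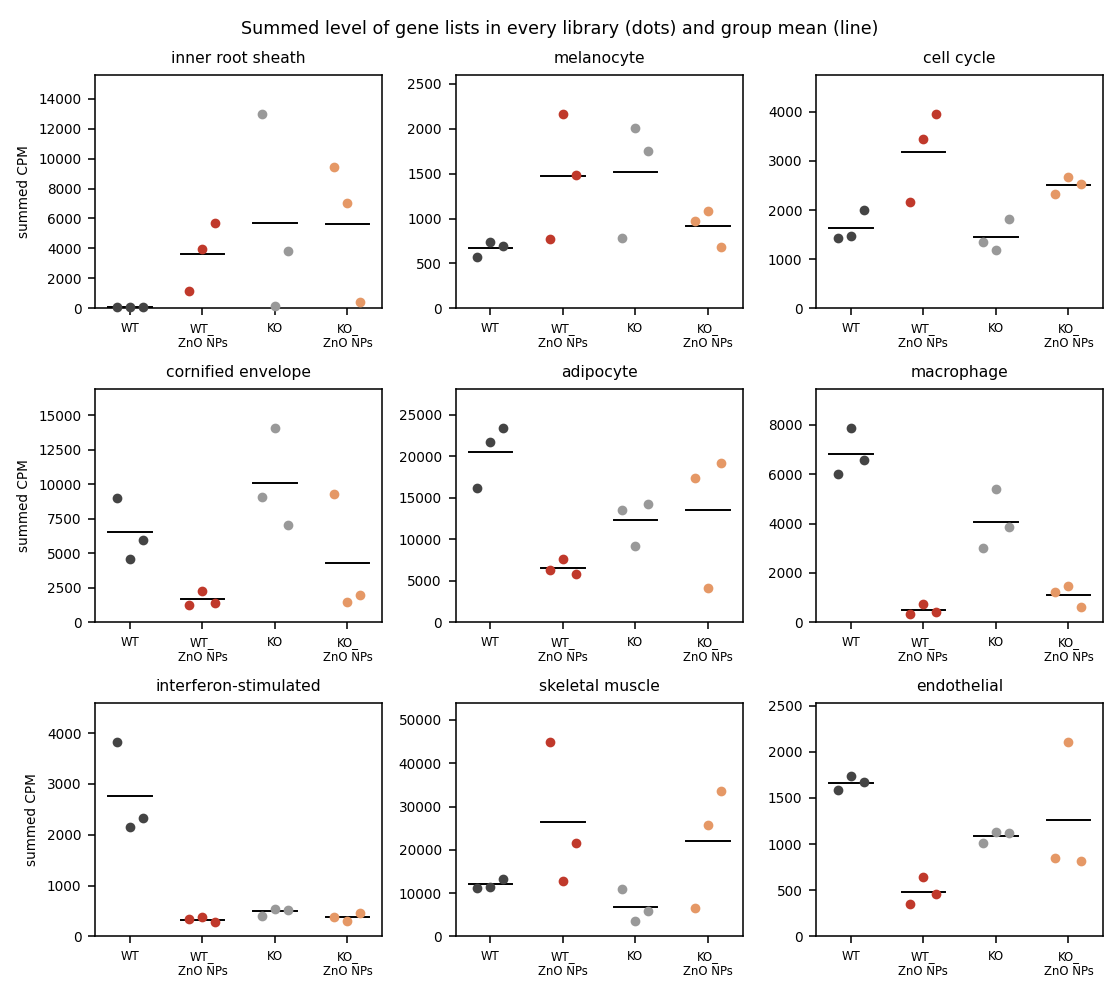
Summed CPM of gene lists in each of the 12 libraries (points) by group, with the group mean as a line and axes that start at 0. The macrophage list lies between 6001 and 7880 CPM in WT and between 352 and 728 CPM in WT_ZnO NPs libraries, and the skeletal muscle list is highest in WT_ZnO NPs replicate 1.

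The change with ZnO NPs in WT skin was set against the change in KO skin by the interaction of genotype and treatment. It passed the test in 1633 genes (8.68%), and the 2 changes have no library in common. Y-linked transcripts differ between the treatment groups of WT skin and not between those of KO skin. A sex difference and a genotype difference in the change therefore cannot be told apart in this interaction. In 957 of these (5.08% of all genes) the change in KO skin was the more positive and in 676 (3.59%) the more negative. Of the 29 interferon-stimulated genes, 24 were among the former, and *Ifit1*, with log2 fold changes of -5.09 in WT and -0.35 in KO skin, differed by 4.74 (adjusted p = 0.00124). The same direction was found for 10 of 25 macrophage and 10 of 20 endothelial genes. *Adgre1* changed by -5.06 in WT and -2.35 in KO skin (difference 2.71, adjusted p = 0.0237). The change in KO skin was the lower one for 10 of 19 melanocyte, 12 of 40 matrix, 7 of 20 follicle stem cell and 5 of 13 inner root sheath genes. It was so for 1 of 17 shaft keratin and 0 of 54 keratin-associated genes. Many sheath, shaft and keratin-associated genes are near 0 in WT and passed the filter through groups in which they are high. Their counts are a description only. *Mlana* changed by 6.66 in WT and 1.55 in KO skin (difference -5.12, adjusted p = 0.00582). In the cell cycle list 15 of 40 genes rose in KO skin, beside 1237 of all 18822 genes tested. Of these 40 members, 0 passed the interaction test of edgeR in either direction (5 at an unadjusted p under 0.05, and 2 called by DESeq2). For *Mki67* the difference was -0.66 (adjusted p = 0.433). For *Mt1* it was 0.74 (adjusted p = 0.501), which does not show that the changes were alike. In this fit of 12 libraries no KO library was left out. The interaction count was 945, 461 and 684 without WT replicate 1, 2 and 3 and 540 without WT_ZnO NPs replicate 3, and 125 with Y-linked transcripts as a covariate.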

How the data were processed

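RNA from full-thickness skin was sequenced from 3 mice a group. The authors deposited raw gene counts by Ensembl identifier; per the labels, libraries were made with a TruSeq kit, and the submitters' processing notes name HISAT2 2.0.5 and mm10, whereas the methods name an NEB kit, STAR and HTSeq. Symbols and positions came from GENCODE M21 (52403 of 52636 identifiers matched).

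Genes were filtered with edgeR's filterByExpr, scaled by TMM and fitted by group over all 12 libraries with edgeR 4.0.16 (R 4.3.3) by the quasi-likelihood test; a gene was called at a p of 0.05 after Benjamini-Hochberg adjustment. CPM are TMM-scaled. Alternatives used DESeq2 1.42.0 or other settings and are given in the closing section.

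The 50 gene lists and the genes described were chosen with earlier results of these data known. Named genes were the 12 largest rises and 12 largest falls among called, non-overlapping protein-coding genes of at least 10 CPM, key members and up to 3 leading rises and falls of each list, and every member of the zinc, melanocyte, sex-linked and assayed lists (values are given for 191 genes, the rest by count, and some items are not reported here). Of the 191, 76 overlap another annotated gene, and the strand setting of the counting is not given in the sources used here. Intervals cover counting error only; the p-values measure the spread between mice of these groups.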

Additional observations from a re-analysis of the deposited data

Results flagged for a closer look

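For 58 of the genes described above, the change with ZnO NPs in KO skin differed from the change in WT skin by the interaction term of the edgeR fit (adjusted p below 0.05), and this is why they are listed. Values are log2 fold changes in KO minus those in WT skin, so that a negative value means a lower change in KO skin. With Y-linked transcripts as a covariate 13 of the 58 still passed, and leaving out 1 library at a time of the 6 WT and WT_ZnO NPs libraries left between 17 and 44; no KO library was left out. The cause of the differences was not tested, and with 3 libraries a group no single library was tested as standing apart. Since Y-linked transcripts differ between the treatment groups of WT skin alone, the differences cannot be told apart from a sex difference.

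Among the hair follicle genes that passed, most had lower changes in KO skin. The difference was -12.39 for *Krt71*, -11.73 for *Krt25*, -10.15 for *Krt27*, -10.75 for *Krt73* and -10.93 for *Krt35*, keratins whose levels were uneven among the vehicle KO libraries. For the growth regulators it was -6.20 for *Shh*, -4.31 for *Lef1*, -6.43 for *Hoxc13*, -6.33 for *Dlx1* and -6.70 for *Fgf5*. In stem cell genes it was -3.38 for *Lgr5* and -2.20 for *Sox9*, and *Cd34*, which fell in WT skin, had 1.76. In genes of the stress keratin, basal and protease lists it was -1.94 for *Krt17*, -2.73 for *Cdh3* and -1.88 for *St14*.

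The pigment genes that passed had lower changes in KO skin. The difference was -3.71 for *Tyr*, -3.96 for *Pmel*, -5.12 for *Mlana*, -2.36 for *Kit* and -3.56 for *Slc45a2*. It was -6.38 for *Oca2*, -2.84 for *Mc1r*, -3.33 for *Slc24a5*, -1.66 for *Mlph* and -3.44 for *Trpm1*. The immediate early genes *Fos*, *Fosb* and *Egr1* gave -5.36, -9.34 and -4.14, and *Ccn1* gave -4.07.

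Interferon-stimulated genes, which fell in WT skin from the level of the vehicle WT libraries, had more positive changes in KO skin where they passed. *Isg15*, *Ifit1* and *Mx1* gave 3.71, 4.74 and 4.32, *Irf7*, *Oas3* and *Oasl1* gave 4.97, 5.09 and 5.0, and *Trim30d* and *Phf11b* gave 5.31 and 5.91. Macrophage and monocyte genes moved likewise, with 2.11 for *Cd68*, 2.71 for *Adgre1*, 4.15 for *Fcgr1*, 3.57 for *Msr1* and 2.61 for *Ccr1*. The difference was 5.73 for *Gdf3*, 4.74 for *Ms4a4c* and 3.66 for *Tlr9*. *Mpo*, which rose in WT skin from under 1 CPM, gave -8.36.

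In vessels and fat the differences were 2.27 for *Pecam1*, 2.40 for *Vwf*, 3.98 for *Lyve1* and 2.64 for *Fabp4*. Antioxidant and iron genes gave 0.94 for *Sod1*, 2.01 for *Sod3*, 1.03 for *Gpx1* and 1.49 for *Ftl1*, and the zinc importer *Slc39a10* gave -2.54. *Fkbp5*, a glucocorticoid target, had a difference of 1.79, with 175, 155 and 83.8 CPM in the vehicle KO and 342, 345 and 343 CPM in the KO_ZnO NPs libraries. *Eif2s3x*, on the X chromosome, gave 1.09.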

How the results depend on the processing

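Y-linked transcripts are aligned with treatment in WT skin, 3 mice stand for each group, and at 21076320 to 28867802 counts a library the precision of a gene near 0 CPM is set by a few reads. Of the 158 named genes that were called, 158 were called with DESeq2 size factors in edgeR, 154 with library size alone, 153 with upper-quartile scaling, 156 without the filter on low counts, 155 by DESeq2 on the 6 libraries and between 132 and 146 when 1 library was left out, against 86 with Y-linked transcripts as a covariate and 92 against a fold change of 2. With the covariate the log2 fold change of 7 of the 158 fell under 0.5 times its value or turned (*Krtap8-1*, *Foxn1*, *Mt4*, *Slc39a12*, *Hspa2*, *Xist* and *Kdm6a*). The count of called genes lay between 5942 and 7177 when 1 library was left out, and was 8079 with the replicate number as a block. The replicate numbers were not treated as pairs of mice: deviations of same-numbered libraries correlated at 0.007, 0.068 and 0.092. Replicates 2 and 3 correlated best with their own number and replicate 1 did not. With the covariate 3896 genes were called (1588 higher, 2308 lower), and against a fold change of 2 there were 1959 (649 higher, 1310 lower). The interaction count of 1633 became 3147 with DESeq2, 1086 without the filter, 125 with the covariate, 1429 with the block and between 461 and 1461 when 1 library was left out. Library-size and upper-quartile scaling moved the median log2 fold change of all genes from 0.06 to 0.16 and 0.17, with 4717 genes higher and 3614 lower and 4815 higher and 3600 lower, so that more genes rose than fell. Of the 33 named genes not called, 15 were called in at least 1 alternative (*Krt86*, *Ednrb*, *Flg*, *Lep*, *S100a8*, *Il6*, *Col1a2*, *Acta1*, *Slc30a4*, *Slc39a2*, *Slc39a8*, *Slc39a11*, *Sod1*, *Bcl2* and *Rela*); without WT_ZnO NPs replicate 2 *Ednrb*, *Flg*, *Lep* and *Rela* had log2 fold changes of -2.18, -3.01, -3.96 and -0.43. Values also moved by over 1.5 times for other uncalled genes, among them *Fkbp5* (-0.19 without WT replicate 1), *Bax* (-0.20 without WT_ZnO NPs replicate 1), and *Ckm* and *Acta1* (0.07 and 0.44 without WT_ZnO NPs replicate 1). With the covariate the called *Sox10* and *Nnat* became 1.98 and -6.08 (adjusted p = 0.0356 and 0.0071). Direction turned for genes that the edgeR fit of 12 libraries did not call: *Krt6a* (between -0.82 and 0.24 when 1 library was left out) was 0.16, 0.017 and 0.24 without WT replicate 2, WT_ZnO NPs replicate 2 and WT_ZnO NPs replicate 3, *Gpnmb* (up to 0.61) -0.21 without WT_ZnO NPs replicate 2, *Krt14* (up to 0.35) -0.23 without WT_ZnO NPs replicate 1, and *Il6*, *Col3a1* and *Thbs1* (up to 4.44, 0.76 and 0.77) -0.33, -0.67 and -0.017 without WT_ZnO NPs replicate 2. *Thbs1* was -0.34 with the covariate, *Cd3e* 0.34 with it and 0.0079 without WT replicate 1 (down to -0.75 without another library), and *Myh4* -0.33 with the replicate block, -1.72 with the covariate and -0.50 without WT_ZnO NPs replicate 1 (up to 1.74). *Xist* was 1.52 with the covariate, which by its construction takes up a sex-linked difference. List medians changed sign for Schwann cell genes (0.43, and -0.02 without WT_ZnO NPs replicate 1), clock genes (-0.15, and 0.00092 without WT_ZnO NPs replicate 3) and smooth muscle genes (-0.07, and 0.03 with library size). The cause of these changes was not tested.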

Other observations

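Gene groups that belong to no comparison above were also counted. Immunoglobulin gene segments, tested in 86 cases, fell in 39 and rose in 0 (median log2 fold change -5.55), and many have near-identical copies. Segments near 0 in the WT_ZnO NPs libraries could pass the filter only through groups in which they are high. Their count and median are thus a description only. The 36 small nucleolar RNA genes that passed the filter had a median of 1.37, with 55.6% higher and 0 lower. Among transcripts marked for experimental confirmation in GENCODE (TEC), 30.1% were higher and 5.15% lower of 369.

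Circadian clock genes rose in 2 and fell in 2 of 22 cases, glucocorticoid response genes in 3 and 7 of 20, smooth muscle and pericyte genes in 3 and 3 of 14, and Schwann cell and nerve genes in 5 and 2 of 14. With Y-linked transcripts as a covariate these counts were 1 and 0, 2 and 5, 3 and 1, and 4 and 1. In a fit of the 6 libraries alone 6 clock genes were higher and 3 lower, beside 25.7% and 23.3% of all genes in that fit. Of 5 erythroid genes 0 rose and 0 fell in the edgeR fit (1 at an unadjusted p under 0.05, and 1 called by DESeq2), and their sum was 614, 769 and 882 CPM in WT and 271, 254 and 661 CPM in WT_ZnO NPs libraries. Besides *Xist*, the X-linked genes *Eif2s3x* and *Kdm6a* were lower in the WT_ZnO NPs libraries (log2 fold change -1.03 and -0.66, adjusted p = 0.00154 and 0.0262), and the *Kdm6a* call was lost without WT replicate 1, WT replicate 3, WT_ZnO NPs replicate 2 or WT_ZnO NPs replicate 3 (adjusted p up to 0.0919); *Xist* lost its call without WT_ZnO NPs replicate 3 (adjusted p up to 0.0532). Genes in the fifth with the highest GC content had a median of 0.23 and those in the fifth with the lowest -0.05.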
